A study of Homo sapiens with 12 samples.

Results

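Gene expression was compared between A549 cells carrying a short hairpin RNA against BTLA (shBTLA, 3 libraries) and A549 control cells (shControl, 3 libraries), and each gene was followed across these 6 of the 12 RNA-Seq libraries of the series. The members were all libraries labelled with either name, and no measured value entered the choice. A549 is an established human lung adenocarcinoma line, grown here in 1640 medium with 10% FBS. The labels describe shRNA plasmids brought into the cells by transfection, and the methods describe lentivirus made with the vector pSIH-H1-Puro, puromycin selection and an empty vector as the control. These accounts differ, and which of them holds for the sequenced cells is not settled here. By the methods both groups passed through the vector and the drug, the control without a hairpin. The other 6 libraries came from A549 cells sorted with an antibody into BTLAlow and BTLAhigh cells, 3 libraries each. They served here only to show where the knockdown differed from the sort, and the experiments share no library. The hairpin used for the sequenced cells is not named in the sources used here. Nothing says either that the replicates were cultured separately, so each p-value sets a difference against a spread among libraries that may be technical only.

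BTLA is an inhibitory receptor of lymphocytes, whose ligand HVEM is encoded by TNFRSF14, and the comparison asks which transcripts move when BTLA is silenced in tumor cells themselves. Several groups of genes described below belong to the mucous secretory program of airway epithelium. In that program the ETS factor SPDEF promotes goblet cell differentiation, AGR2 is a disulfide isomerase of the endoplasmic reticulum needed to fold mucins, and MUC5AC and MUC5B are the gel-forming mucins of airway mucus. Other groups encode the collagens, contractile proteins and other matrix proteins that are typical of mesenchymal cells and wound repair.

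The libraries held 29130357 to 41748767 reads assigned to genes. All values are RPM, that is assigned reads scaled to a common library total, on a scale without gene length, so that the levels of different genes cannot be compared. The targeted gene was at the limit of detection. BTLA had 0 reads in all 3 shBTLA libraries and in shControl 1 and 2 and 2 reads in shControl 3 (two-sided p = 1 in an exact permutation test), and 3 reads, the limit that a count of 0 allows, correspond to 0.0719 to 0.103 RPM. No fall in BTLA could be detected at this depth, and its reads say nothing about the labels. The study's methods state that knockdown was checked with qRT-PCR or immunoblot, which are separate measurements from these reads. For TNFRSF14 the control libraries held 2, 4 and 2 reads and each shBTLA library 0 (two-sided exact permutation p = 0.1, which is the lowest value possible with 3 against 3). The 10 epithelial and A549 markers were all detected and summed to 27773.4 to 29732.8 RPM in shBTLA and 20558.6 to 23584.1 RPM in shControl, so that the sum moved with the groups, and its part in the results below was not tested. Of 13 lymphocyte markers, 4 were at 0 in all 6 libraries, namely CD3D, CD3E, CD2 and MS4A1, and the list summed to 1.37 to 2.08 RPM. Ribosomal protein genes took 9.65%, 11.5% and 9.73% of reads in shBTLA and 6.94%, 11.7% and 9.45% in shControl (two-sided p = 0.5 in an exact permutation test). The library with the lowest share, shControl 1, was also the most distant on principal component 1 (46.7% of the variance), and component 2 (25.7%) separated the groups.

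Of the 16630 genes tested, which had 10 or more reads in 3 or more of the 6 libraries, 130 were higher in shBTLA and 114 lower at an adjusted p under 0.05 (limma on log2(RPM + 0.1), Benjamini-Hochberg adjustment). These are 0.782% and 0.686% of the genes tested, and 898 and 892 genes passed an unadjusted p under 0.05. In all 244 genes the groups did not overlap, which choosing genes by a small p with 3 against 3 libraries makes likely. Genes that were not called, such as KRT8, AXL and MCM7, had separate groups as well. The share of all genes tested with separate groups was not counted. Remarks on overlap here and below are therefore description only and add nothing to a call. The higher genes moved further than the lower ones, with a median log2 fold change of 1.44 against -1.09. A change of at least 4-fold, a log2 fold change of 2 in size, was reached by 36 higher genes and by 1 lower gene, and at least 8-fold by 5 and 0. The median log2 fold change of all genes tested was -0.02. Fold changes on this scale understate the change of genes near 0.

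**Figure D1:**
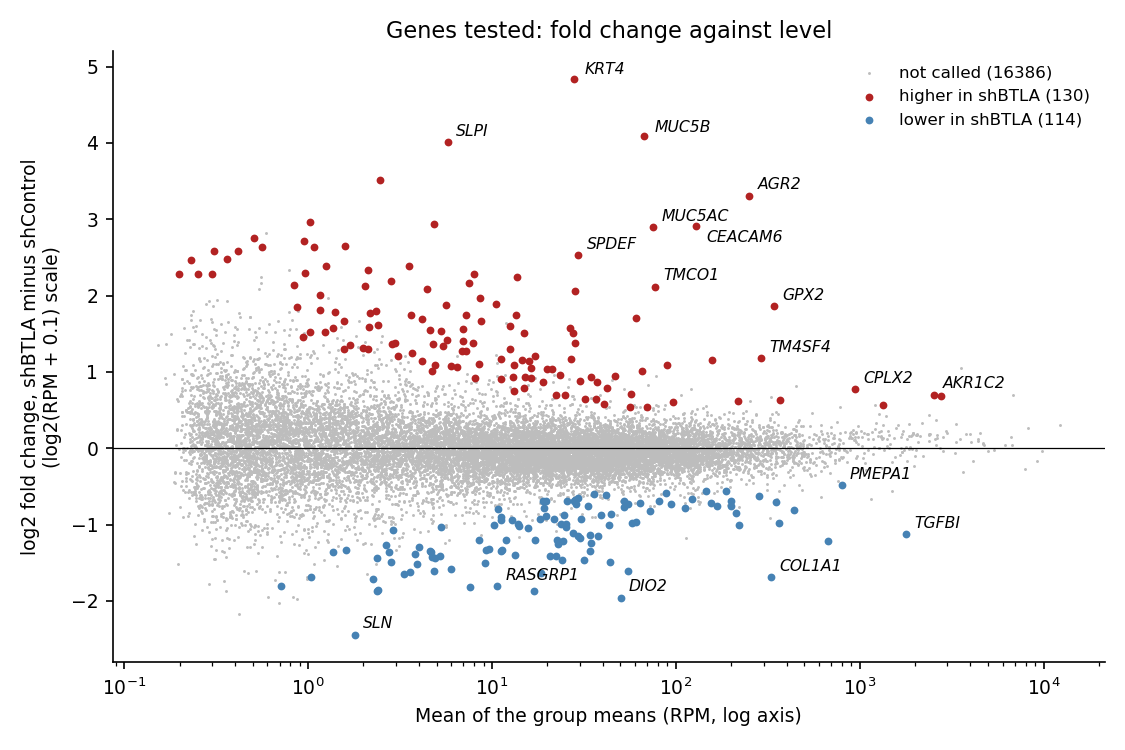
Log2 fold change of each of the 16630 genes tested (vertical axis, log2(RPM + 0.1) scale, shBTLA minus shControl) against the mean of the group means (horizontal axis, RPM, log axis). Red points are the 130 genes called higher, blue points the 114 called lower and grey points genes not called, and KRT4, MUC5B and SLPI lie above 4 while SLN is the 1 called gene below -2.

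Single libraries carried much of these counts. Leaving out shBTLA 1, 2 or 3 left 24, 25 and 22 higher and 7, 6 and 3 lower genes, and leaving out shControl 3 left 28 and 5. Without shControl 1 or shControl 2 the counts rose to 291 and 208 higher and 193 and 263 lower genes. The genes called in every one of these 6 fits were 22 higher and 3 lower ones. The 22 were MUC5B, MUC5AC, CEACAM6, AGR2, SPDEF, TMCO1, MMP7, GPX2, KRT4, PRR15, TJP3, TM4SF4, LGR6, RNF43, ARRB1, CYP4F3, FCGBP, CEACAM5, CYP4F11, SLPI, DKK1 and INHBB, and the 3 were DIO2, COL1A1 and TAGLN. All other genes named below as rising or falling lost the call without at least 1 library, most of them when any 1 of shBTLA 1, shBTLA 2, shBTLA 3 and shControl 3 was left out. A limma fit that also held the ribosomal share of each library gave 1360 higher and 1273 lower genes. Its adjusted p-values were far smaller than in the main fit, for KRT4 2.54e-21 against 4.47e-04. These counts are therefore no check of the calls. Scaling by the median ratio in place of the library total ended the calls of AKR1C2, AKR1C3, ALDH3A1, CENPW, PMEPA1, PDLIM7, JUNB and COL6A2 among the genes described below (adjusted p = 0.058 to 0.124).

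**Figure D2:**
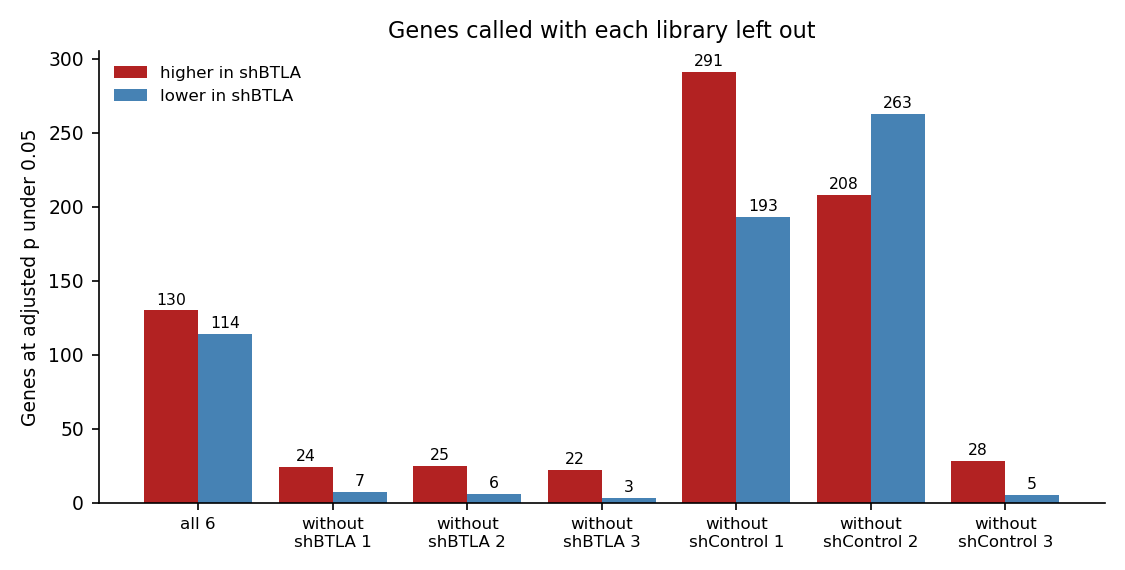
Number of genes called higher (red) and lower (blue) in shBTLA at an adjusted p under 0.05 (vertical axis) with all 6 libraries and with each library left out in turn (horizontal axis). The bars fall to 22 to 28 higher genes when any 1 shBTLA library or shControl 3 is left out and rise to 291 and 208 without shControl 1 or shControl 2.

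Secretory and goblet cell genes were the list with the largest share of calls. Lists and members were chosen with earlier results of these data known, so this rank is a description only. Of 19 members tested 9 rose and 0 fell, with a median log2 fold change of 0.76, and the 10 not called included 1 at an unadjusted p under 0.05 that was higher and 2 that were lower. MUC5B, on chromosome 11 from 1223066 to 1262172 of GRCh38, had 131, 129.7 and 122 RPM in shBTLA 1, 2 and 3 and 7.52, 8.003 and 6.699 RPM in shControl 1, 2 and 3. Its shBTLA libraries lay about 17-fold above all 3 control libraries (log2 fold change 4.09, standard error 0.12, adjusted p = 5.28e-06). MUC5AC, its neighbour on chromosome 11 from 1157953 to 1201138, had 134, 128 and 135 RPM in shBTLA against 17.6, 17.9 and 17.3 RPM in shControl, with little scatter within either group (log2 fold change 2.898, standard error 0.101, adjusted p = 1.12e-05). AGR2 had 446, 487 and 434 RPM in shBTLA against 38.1, 58.2 and 43.4 RPM in shControl (log2 fold change 3.31, standard error 0.16, adjusted p = 7.30e-05). SPDEF, the transcription factor of this group, had 48.97, 51.8 and 49.8 RPM in shBTLA against 7.59, 9.75 and 8.66 RPM in shControl (log2 fold change 2.53, standard error 0.13, adjusted p = 1.40e-04). FCGBP, a mucus component that binds the Fc part of IgG, had 7.5, 7.74 and 6.51 RPM in shBTLA against 1.58, 1.81 and 1.49 RPM in shControl (log2 fold change 2.09, standard error 0.19, adjusted p = 0.00212). SLPI, an inhibitor of leukocyte proteases, was under 1 RPM in every control library and had 9.13, 13.5 and 10.01 RPM in shBTLA against 0.275, 0.778 and 0.825 RPM in shControl (log2 fold change 4.01, standard error 0.37, adjusted p = 0.00231). LCN2, which binds bacterial iron carriers, and ST6GALNAC1, a sialyltransferase of mucin-type glycans, rose by 2.39 (adjusted p = 0.00603) and 2.64 (adjusted p = 0.0282) on the log2 scale, and B3GNT3, a glycosyltransferase, was the remaining member called. Leaving out any 1 library left 6 to 10 members of the list called higher and 0 called lower.

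Mucins that stay in the membrane and CEACAM adhesion molecules moved the same way, with 4 of 9 tested members higher, 0 lower and a median of 0.87. CEACAM6, which encodes a lipid-anchored adhesion molecule, lies on chromosome 19 from 41750977 to 41772211 and had 235, 211 and 236 RPM in shBTLA against 35.7, 27.5 and 27.4 RPM in shControl (log2 fold change 2.92, standard error 0.13, adjusted p = 6.86e-05). Its neighbour CEACAM5, the carcinoembryonic antigen, had 4.87, 3.93 and 4.96 RPM in shBTLA against 0.206, 0.259 and 0.515 RPM in shControl, with no overlap of the groups (log2 fold change 3.52, standard error 0.31, adjusted p = 0.00212). MUC13 had 51.5, 44.4 and 47.7 RPM in shBTLA against 31.9, 22.8 and 24.2 RPM in shControl (log2 fold change 0.87, standard error 0.15, adjusted p = 0.0351), a change of under 2-fold. MUC16, the antigen CA125, was near the floor, with 0.789, 1.18 and 0.407 RPM in shBTLA against 0, 0.0324 and 0.103 RPM in shControl (log2 fold change 2.58, standard error 0.47, adjusted p = 0.0417). CEACAM5 and CEACAM6 are close paralogs and may share reads.

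Among keratins and cornified envelope genes 3 of 25 rose and 0 fell, with a median of 0.30. KRT4, a keratin of stratified epithelia that line moist surfaces, showed the largest fold change among all genes called. It had 58.4, 46.8 and 56.2 RPM in shBTLA 1, 2 and 3 and 3.06, 1.69 and 1.06 RPM in shControl 1, 2 and 3 (log2 fold change 4.84, standard error 0.33, adjusted p = 4.47e-04), and the control libraries were spread over almost 3-fold, all far below the shBTLA libraries. KRT16, a keratin of activated epidermal cells, had 4.74, 4.46 and 3.79 RPM in shBTLA against 1.58, 1.88 and 2.01 RPM in shControl (log2 fold change 1.204, standard error 0.204, adjusted p = 0.032). KRT20, a keratin of intestinal epithelium, was under 1 RPM in all libraries and rose by 2.29 on the log2 scale (adjusted p = 0.0338). The simple epithelial keratins KRT8 and KRT18, which are among the A549 markers, had log2 fold changes of 0.700 and 1.05 and were not called (adjusted p = 0.0797 and 0.0993). In the list of junction and polarity genes 2 of 30 rose and 1 fell. TJP3, a scaffold of tight junctions, had 12.2, 12.1 and 12.5 RPM in shBTLA against 2.403, 2.98 and 2.65 RPM in shControl (log2 fold change 2.16, standard error 0.16, adjusted p = 8.89e-04) and the epithelial ETS factor EHF had 11.7, 11.02 and 12.3 RPM in shBTLA against 6.69, 5.05 and 4.59 RPM in shControl (log2 fold change 1.101, standard error 0.18, adjusted p = 0.0294). The claudin CLDN4, also a tight junction protein, went the other way at 9.95, 8.67 and 8.98 RPM in shBTLA against 17.4, 17.6 and 20.1 RPM in shControl (log2 fold change -0.99, standard error 0.14, adjusted p = 0.0164). E-cadherin, the product of CDH1, had 23.9, 20.3 and 22.4 RPM in shBTLA against 15.8, 8.75 and 11.4 RPM in shControl and did not pass (adjusted p = 0.0971).

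**Figure D3:**
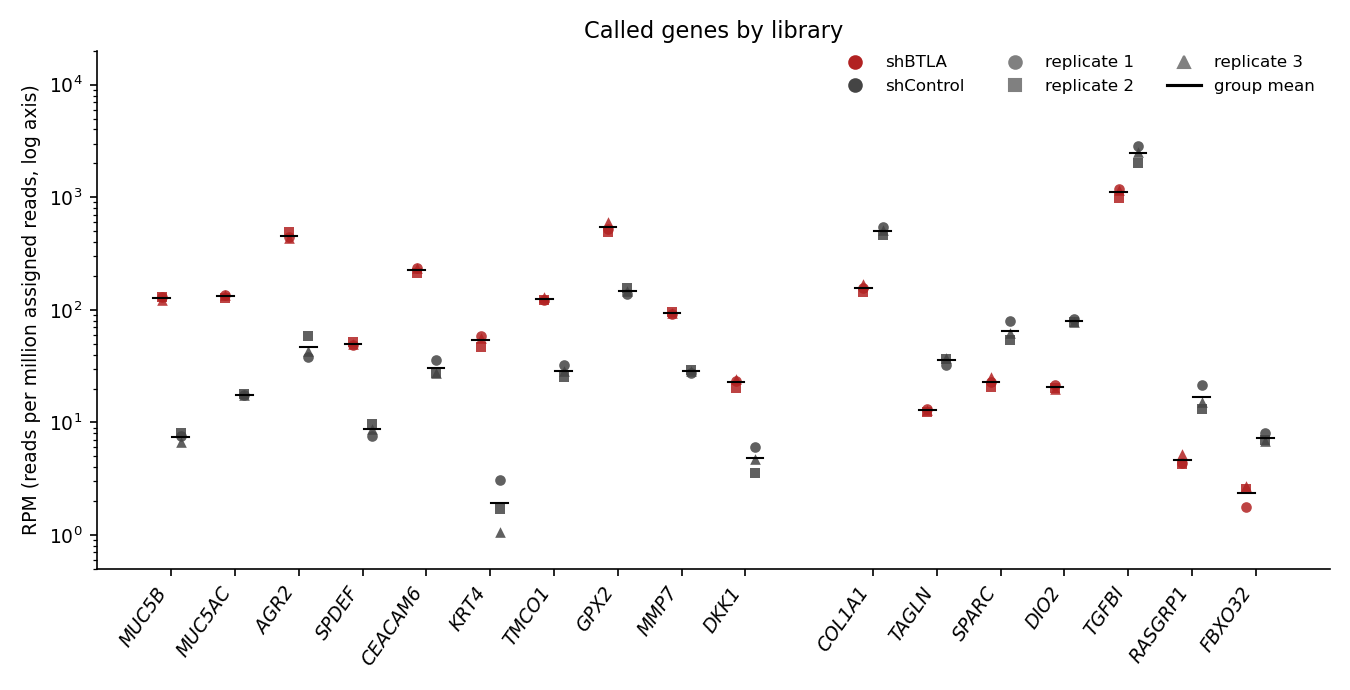
RPM (vertical axis, log axis) of 10 genes called higher (left) and 7 called lower (right) in each shBTLA library (red) and each shControl library (grey), with the marker shape giving the replicate number and a black line the group mean. Every gene shown has separate groups, from MUC5B at 122 to 131 against 6.70 to 8.003 RPM to TGFBI at 994 to 1187 against 1998 to 2864 RPM, and the control libraries of AGR2, KRT4 and the lower genes scatter more widely than those of MUC5AC.

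Enzymes of xenobiotic metabolism rose in 8 of 51 tested members, with 0 lower and a median of 0.25. With libraries scaled by the median ratio in place of the total the list held 5 higher calls. The CYP4F enzymes hydroxylate fatty acids and their derivatives. CYP4F3 had 37.5, 43.1 and 42.5 RPM in shBTLA against 14.9, 15.4 and 12.8 RPM in shControl (log2 fold change 1.51, standard error 0.13, adjusted p = 0.00186), CYP4F11 had log2 fold change 1.67 (adjusted p = 0.00212) and CYP4F12 had 1.698 (adjusted p = 0.0131). These 3 genes lie near each other on chromosome 19 and are similar in sequence, so reads may be shared. CYP2S1 had 43.8, 30.9 and 44.7 RPM in shBTLA against 14.5, 11.99 and 12.8 RPM in shControl (log2 fold change 1.58, standard error 0.17, adjusted p = 0.00618). ALDH3A1, an aldehyde dehydrogenase that A549 cells carry at a high level, had 3355, 3500.2 and 3411 RPM in shBTLA against 1979, 2296 and 2119.5 RPM in shControl (log2 fold change 0.69, standard error 0.10, adjusted p = 0.0182), and the carboxylesterase CES1 rose by 0.601 on that scale (adjusted p = 0.027).

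NRF2 target genes rose in 4 of 38 tested members with 0 lower and a median of 0.18. GPX2, a glutathione peroxidase of epithelia, had 519, 492 and 608 RPM in shBTLA against 138, 157 and 148 RPM in shControl, the shBTLA libraries standing more than 3-fold above the controls (log2 fold change 1.87, standard error 0.11, adjusted p = 2.37e-04). The aldo-keto reductases AKR1C2 and AKR1C3, neighbours on chromosome 10, had 3002, 3241 and 3214 RPM in shBTLA against 1694, 2189 and 1958 RPM in shControl and 1569, 1570.5 and 1635 RPM in shBTLA against 1018, 1099 and 1102 RPM in shControl. Their log2 fold changes were 0.702 (adjusted p = 0.0309) and 0.57 (adjusted p = 0.0271), and as paralogs they may share some reads. CYP4F11 was the remaining member called.

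Plasma proteins of the liver type rose in 4 of 35 members and fell in 1, with a median of 0.07. The steroid carrier SERPINA6, APOH and the coagulation inhibitor TFPI had log2 fold changes of 2.29, 1.303 and 0.701 (adjusted p = 0.0131, 0.0152 and 0.0338). SERPINF1, an inhibitor of vessel growth, fell (log2 fold change -1.04, standard error 0.18, adjusted p = 0.0343).

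Signaling genes moved as single members. In the WNT list 3 of 40 members rose and 0 fell, with a median of 0.01, and all 3 encode parts or inhibitors of the surface pathway. LGR6, an R-spondin receptor, had 8.37, 8.13 and 9.44 RPM in shBTLA against 1.41, 0.907 and 0.876 RPM in shControl (log2 fold change 2.94, standard error 0.23, adjusted p = 0.00107). RNF43, a ubiquitin ligase that removes WNT receptors, had 20.4, 22.9 and 19.3 RPM in shBTLA against 5.904, 6.804 and 5.69 RPM in shControl (log2 fold change 1.75, standard error 0.15, adjusted p = 0.0017). DKK1, a secreted WNT inhibitor, had 23.3, 20.2 and 24.5 RPM in shBTLA against 6.04, 3.56 and 4.77 RPM in shControl (log2 fold change 2.25, standard error 0.21, adjusted p = 0.00238). All 3 stayed called with any 1 library left out. The TGF-beta family list held 2 higher and 3 lower genes among 50 tested, with a median of -0.23. INHBB, an activin subunit, had 47.8, 38.7 and 50.2 RPM in shBTLA against 14.2, 9.36 and 9.43 RPM in shControl (log2 fold change 2.06, standard error 0.19, adjusted p = 0.00282) and ID2, a target of BMP signaling, had 50.7, 52.4 and 56.7 RPM in shBTLA against 32.1, 28.8 and 31.8 RPM in shControl (log2 fold change 0.78, standard error 0.11, adjusted p = 0.0175). PMEPA1, which is induced by TGF-beta and restrains it, had 663, 694 and 637 RPM in shBTLA against 950.0, 939.8 and 903 RPM in shControl (log2 fold change -0.49, standard error 0.09, adjusted p = 0.0436). LTBP2, a matrix protein related to the TGF-beta binding proteins, and BMP1, the procollagen C-proteinase, fell, at -1.41 (adjusted p = 0.0322) and -0.56 (adjusted p = 0.0386) on the log2 scale.

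The study reported MAPK signaling among the KEGG pathways enriched in its knockdown genes, chosen by unadjusted p and fold change. It also reported more phosphorylated ERK1/2 protein by immunoblot. Transcript levels of cascade members, given here, measure neither of these. The core cascade had 1 higher and 1 lower call among 79 tested genes and a median of -0.12. Over all genes tested 0.782% were called higher and 0.686% lower. So few calls describe single genes and not the list, which holds for the 2 further lists of this paragraph as well. ARRB1, a beta-arrestin that scaffolds MAPK complexes, had 16.2, 16.04 and 17.5 RPM in shBTLA against 5.18, 4.05 and 4.02 RPM in shControl (log2 fold change 1.89, standard error 0.16, adjusted p = 0.00177). RASGRP1, which loads RAS with GTP and is best known from lymphocytes, had 4.39, 4.24 and 5.25 RPM in shBTLA against 21.7, 13.2 and 15.2 RPM in shControl (log2 fold change -1.803, standard error 0.21, adjusted p = 0.00915). Its control libraries were spread over 13.2 to 21.7 RPM, all above the shBTLA libraries. Among 38 feedback and target genes of ERK, ETV4 was the only call, at 49.8, 47.6 and 49.4 RPM in shBTLA against 30.9, 34.2 and 33.2 RPM in shControl (log2 fold change 0.58, standard error 0.11, adjusted p = 0.0426), and DUSP6, a phosphatase induced by ERK, had 4.03, 3.53 and 3.81 RPM in shBTLA against 3.502, 2.88 and 3.27 RPM in shControl (adjusted p = 0.729). Immediate early genes held 1 call in each direction among 28. FOS had 1.105, 1.402 and 1.73 RPM in shBTLA against 0.481, 0.194 and 0.309 RPM in shControl (log2 fold change 1.85, standard error 0.35, adjusted p = 0.0439) and JUNB had 156, 157 and 132 RPM in shBTLA against 223, 264 and 264 RPM in shControl (log2 fold change -0.75, standard error 0.12, adjusted p = 0.0261), and both encode subunits of the factor AP-1. With 1 library left out, FOS and JUNB were each called in 2 of the 6 fits.

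Other genes that rose belong to no list above. MMP7, an epithelial matrix protease and the 1 member of 35 proteases and inhibitors that rose, had 91.2, 95.7 and 93.2 RPM in shBTLA against 27.7, 29.4 and 28.8 RPM in shControl (log2 fold change 1.704, standard error 0.101, adjusted p = 2.07e-04). TM4SF4 and TM4SF1, membrane proteins of the same family and 96282 bases apart on chromosome 3, had 407, 392 and 405 RPM in shBTLA against 183, 169 and 180.1 RPM in shControl and 431, 456 and 459 RPM in shBTLA against 273, 299.5 and 297 RPM in shControl, a change of 1.18 (adjusted p = 9.77e-04) for the former and 0.63 (adjusted p = 0.0193) for the latter on the log2 scale. CPLX2, a regulator of vesicle fusion, had 1166, 1228 and 1158 RPM in shBTLA against 703, 736 and 633 RPM in shControl (log2 fold change 0.78, standard error 0.10, adjusted p = 0.0131). VSIR, which encodes the checkpoint protein VISTA, had 25.7, 23.8 and 23.7 RPM in shBTLA against 12.8, 14.3 and 13.04 RPM in shControl (log2 fold change 0.86, standard error 0.12, adjusted p = 0.0177). H19, an imprinted long noncoding RNA, had 1.5, 1.96 and 2.16 RPM in shBTLA against 0.0687, 0.1296 and 0.309 RPM in shControl (log2 fold change 2.96, standard error 0.39, adjusted p = 0.0135), and LINC01133, AL449403.1 and GACAT2 were the other noncoding RNAs that rose. AL449403.1 had 0 reads in all 3 control libraries and 0.579, 0.309 and 0.503 RPM in shBTLA, and it overlaps ERCC6L2. The genes with at least 20 reads in every shBTLA library and at most 3 in every control library were GUCA2B, ADH1C and AC074194.2, and no gene met the reverse rule. GUCA2B, which encodes uroguanylin, had 22, 26 and 20 reads against 0, 0 and 2, and ADH1C, an alcohol dehydrogenase, had 29, 23 and 27 against 2, 2 and 0.

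Collagens and the enzymes that process them fell in 7 of 35 tested members, with 0 higher and a median of -0.34, and 17 members were lower at an unadjusted p under 0.05. COL1A1, the chain that forms most of type I collagen, lies on chromosome 17 from 50183289 to 50201632 and had 158, 143 and 168 RPM in shBTLA 1, 2 and 3 and 543, 462 and 511 RPM in shControl 1, 2 and 3 (log2 fold change -1.69, standard error 0.11, adjusted p = 3.34e-04). The libraries of the groups were more than 2-fold apart. COL5A1 had 264, 224 and 249.8 RPM in shBTLA against 574, 411 and 475 RPM in shControl (log2 fold change -0.98, standard error 0.14, adjusted p = 0.0168) and COL4A2, a chain of basement membrane collagen, had 336, 291 and 328 RPM in shBTLA against 665, 460.4 and 559 RPM in shControl (log2 fold change -0.805, standard error 0.14, adjusted p = 0.0374). COL6A1, COL6A2, the prolyl hydroxylase P4HA3 and BMP1 fell with log2 fold changes of -0.66, -0.87, -0.94 and -0.56. COL1A1 alone stayed called with every library left out, and the list then held 1 to 12 lower calls. Fibroblast markers summed to 147 to 171 RPM in shBTLA and 466 to 548 RPM in shControl, almost all of it COL1A1, while FAP and DCN, which mark fibroblasts, were at 0 in all 6 libraries. Of the 9 markers 4 were tested, with a median log2 fold change of -0.93. COL1A1 was the 1 called, and 3 were lower at an unadjusted p under 0.05 by limma, COL1A1 included.

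Mesenchymal genes fell in 7 of 32 tested members, with 0 higher and a median of -0.47. SPARC, a collagen-binding matrix protein, had 22.7, 20.6 and 25.1 RPM in shBTLA against 79.1, 53.5 and 62.5 RPM in shControl (log2 fold change -1.49, standard error 0.16, adjusted p = 0.00618). TGFBI, a matrix protein induced by TGF-beta, had 1187, 994 and 1167 RPM in shBTLA against 2864, 1998 and 2497 RPM in shControl (log2 fold change -1.12, standard error 0.15, adjusted p = 0.0135). The highest control library was shControl 1, and the groups did not overlap without it either. SPOCK1, a matrix proteoglycan, MMP2, a gelatinase, CDH2, which encodes N-cadherin, and SNAI2, a transcriptional repressor of epithelial genes, fell with log2 fold changes of -1.87, -1.34, -0.73 and -1.34 (adjusted p = 0.00941, 0.0152, 0.0348 and 0.0367). Vimentin, the defining intermediate filament of mesenchymal cells, had 1566, 1873 and 1562 RPM in shBTLA against 1329, 2139.9 and 1771 RPM in shControl, with overlapping groups (adjusted p = 0.945 for VIM). The count of lower members ranged from 0 to 10 when 1 library was left out, so that it depended on which library that was.

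Contractile and SRF target genes fell in 4 of 32 tested members, with 0 higher and a median of -0.37. TAGLN, an actin-binding protein of smooth muscle, had 13.2, 12.3 and 12.8 RPM in shBTLA 1, 2 and 3 and 32.5, 36.6 and 37.4 RPM in shControl 1, 2 and 3 (log2 fold change -1.47, standard error 0.12, adjusted p = 0.00166), and it kept its call with any library left out. MYL9, a myosin light chain, had 2.105, 2.92 and 2.66 RPM in shBTLA against 5.42, 7.61 and 7.21 RPM in shControl (log2 fold change -1.36, standard error 0.21, adjusted p = 0.0256) and PDLIM7, an actin-associated adaptor, had 267, 273 and 263 RPM in shBTLA against 373, 469 and 470.4 RPM in shControl (log2 fold change -0.700, standard error 0.12, adjusted p = 0.0297). KCNMA1, a calcium-activated potassium channel, fell by 1.17 on the log2 scale (adjusted p = 0.00883). Of 46 integrin, laminin and focal adhesion genes 3 fell and 0 rose. The focal adhesion protein ZYX had 229, 203 and 233 RPM in shBTLA against 342, 321 and 362 RPM in shControl (log2 fold change -0.63, standard error 0.103, adjusted p = 0.0293) and the laminin chain LAMA4 was at -1.39 on the log2 scale (adjusted p = 0.0323). The 29 YAP and TEAD target genes tested held 0 calls by limma and 0 by voom, with unadjusted p under 0.05 in 8 lower genes and 1 higher gene and a median of -0.32.

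The lower gene with the smallest p was DIO2, the deiodinase that activates thyroid hormone. It lies on chromosome 14 from 80197527 to 80387757 and had 21.4, 20.1 and 19.9 RPM in shBTLA 1, 2 and 3 and 83.2, 77.6 and 78.05 RPM in shControl 1, 2 and 3 (log2 fold change -1.96, standard error 0.11, adjusted p = 1.40e-04), a separation of the groups by almost 4-fold with little scatter within either. SLN, a small inhibitor of the calcium pump of muscle, showed the largest fall among called genes at 0.316, 0.897 and 0.335 RPM in shBTLA against 2.13, 4.21 and 2.91 RPM in shControl (log2 fold change -2.44, standard error 0.41, adjusted p = 0.0308), at levels near the floor. PDE11A, a cyclic nucleotide phosphodiesterase, had 3.74, 2.64 and 3.54 RPM in shBTLA against 11.6, 13.3 and 10.6 RPM in shControl (log2 fold change -1.82, standard error 0.19, adjusted p = 0.00554). Guidance receptors and ligands fell in 4 of 49 and rose in 2. SEMA7A, PLXNA4, NRP2 and EPHB2 had log2 fold changes of -1.86, -1.87, -0.98 and -0.696, and EPHB3 and SEMA4G had 1.52 and 1.06. Of the growth factors PDGFB and ANGPTL4 fell with log2 fold changes of -1.004 and -1.13. The latter was counted among glycolysis and hypoxia genes as well, of which 3 of 45 fell, with STC1 and PFKFB4. IL11, a cytokine, had 6.21, 5.08 and 4.19 RPM in shBTLA against 12.1, 11.6 and 11.9 RPM in shControl (log2 fold change -1.202, standard error 0.18, adjusted p = 0.0204). HHLA2, a ligand of the B7 family, had 2.95, 2.75 and 2.16 RPM in shBTLA against 8.34, 5.99 and 7.39 RPM in shControl (log2 fold change -1.43, standard error 0.21, adjusted p = 0.0182). MEG3, an imprinted long noncoding RNA, had 42.8, 39.1 and 42.1 RPM in shBTLA against 65.3, 69.3 and 71.5 RPM in shControl (log2 fold change -0.73, standard error 0.105, adjusted p = 0.0176), and NKILA and AL049775.1 were the other noncoding RNAs that fell.

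The lists of S phase and G2/M genes held no call. With 0.782% of all genes tested called higher and 0.686% lower, 0 calls in lists of this size is not unusual. An unadjusted p under 0.05 by limma was reached by 898 higher and 892 lower genes of 16630. Of 54 S phase genes and 60 G2/M genes limma and voom called 0, an unadjusted p under 0.05 was reached by 0, and the medians were -0.09 and -0.07. PCNA, the sliding clamp of replication, had 459, 455 and 506 RPM in shBTLA against 460.0, 451 and 474 RPM in shControl (log2 fold change 0.03, standard error 0.09, adjusted p = 0.923), and BIRC5, an inhibitor of apoptosis used in mitosis, had 372, 393 and 366 RPM in shBTLA against 352, 432 and 391 RPM in shControl (log2 fold change -0.05, standard error 0.11, adjusted p = 0.902). CDKN2C, an inhibitor of CDK4 and CDK6, was the 1 call among 25 G1 regulators, at 40.8, 36.1 and 40.7 RPM in shBTLA against 26.7, 23.4 and 24.8 RPM in shControl (log2 fold change 0.65, standard error 0.12, adjusted p = 0.0415). By limma and voom 0 genes were called among 78 ribosomal protein genes (unadjusted p under 0.05 in 0), 15 mitochondrially encoded genes (1), 16 genes of RNA interference (1), 24 genes of HLA class I presentation (8, all higher) and 39 genes of the unfolded protein response (4 higher, 1 lower). With the same counts for unadjusted p given as higher and lower, amino acid response (0 and 2, of 41), lipid synthesis (3 and 1, of 44), respiratory chain (3 and 0, of 68) and Notch pathway genes (0 and 3, of 30) held 0 calls by either tool as well. The interferon list of 44 genes held 1 call, IFI44, which fell (log2 fold change -1.33, standard error 0.23, adjusted p = 0.0356) at under 3 RPM in all libraries.

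**Figure D4:**
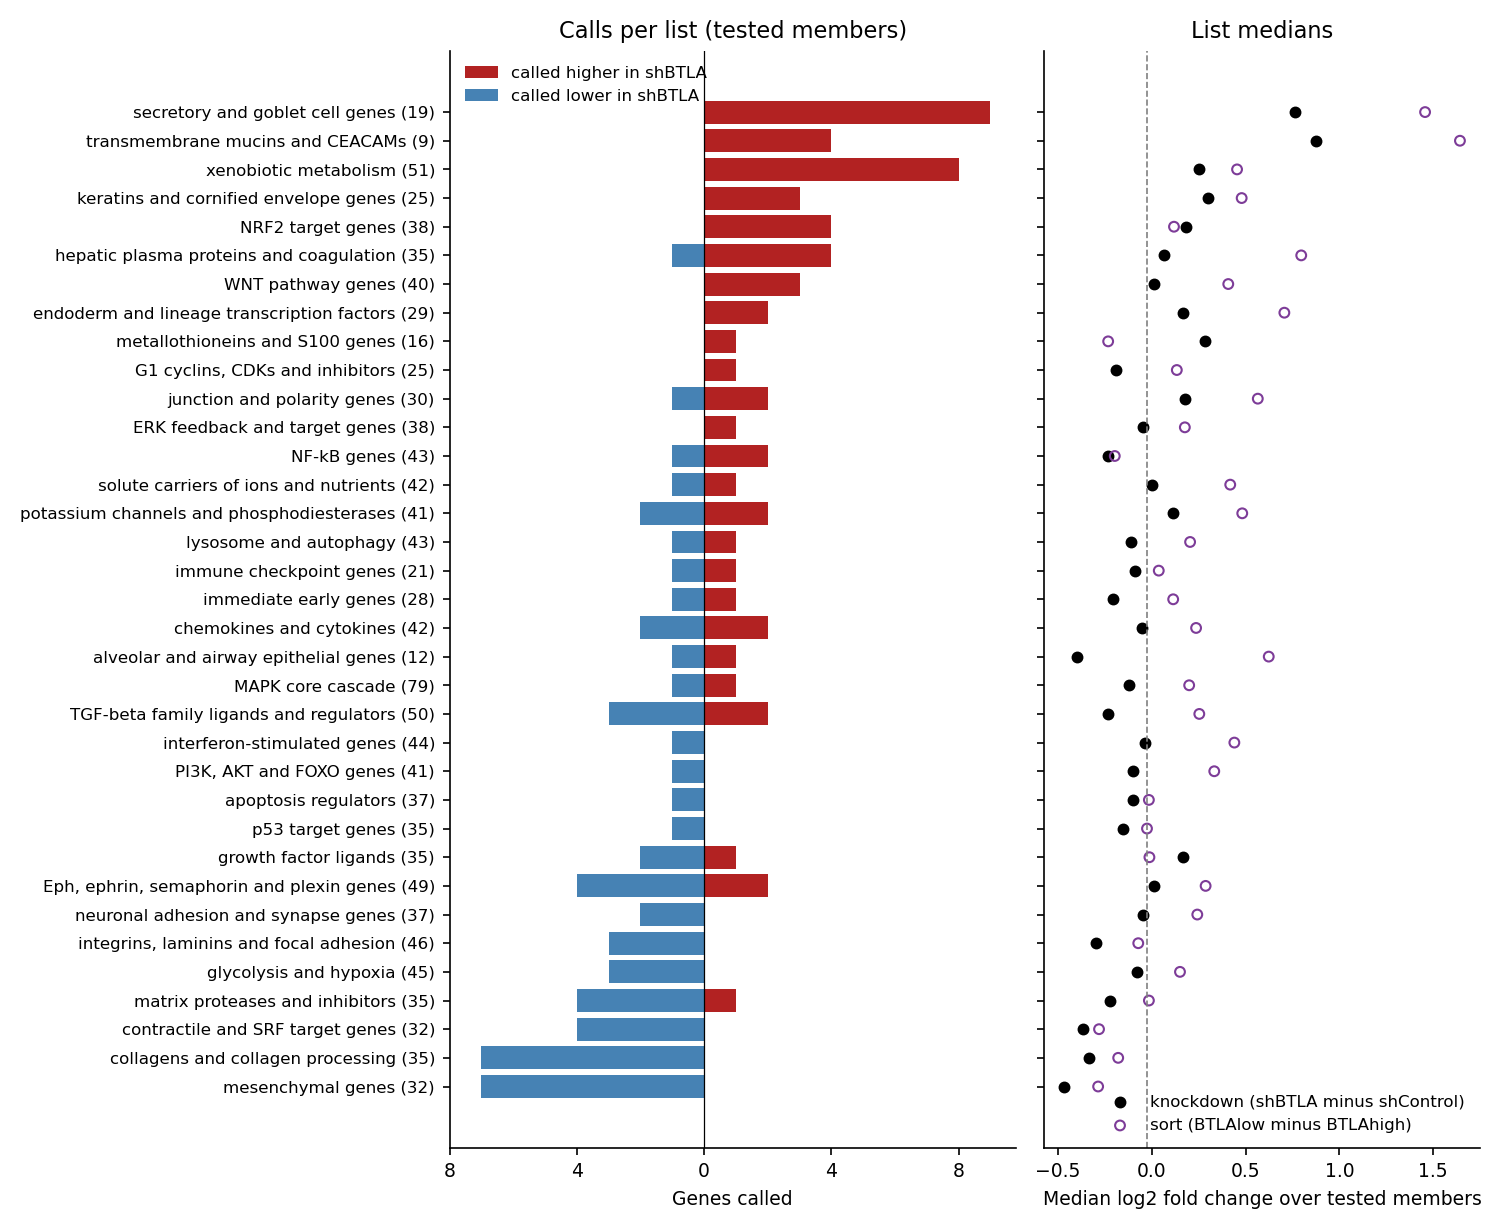
Left, number of members called higher (red, to the right) and lower (blue, to the left) in shBTLA for each list with at least 1 call, with the number of members tested in brackets. Right, median log2 fold change over the tested members in the knockdown (filled circles) and in the sort (open circles), with a dashed line at the knockdown median of all genes, -0.02. Secretory genes hold 9 higher calls, and mesenchymal and collagen genes hold 7 lower calls each.

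Called genes of the same direction lay within 100 kb of each other in 16 pairs, of which the closest overlap. No matching count was made over all genes tested, so the number of pairs is a description only. NKILA overlaps the start of PMEPA1 on chromosome 20 and both fell, at log2 fold changes of -1.01 and -0.49. NIPAL4 lies within ADAM19, TP53I3 within FAM228B, and AL049775.1 overlaps FLRT2. The strand setting of the counting is not given, so the members of these pairs cannot be told apart fully. The other 12 pairs do not overlap. Among them were TSPAN13 and AGR2 (7275 bases apart), AKR1C2 and AKR1C3, CEACAM5 and CEACAM6, MUC5AC and MUC5B (21928 bases) and CYP4F3 and CYP4F12, all higher, and COL6A1 and COL6A2, both lower.

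Promoter sequence was read for the protein-coding genes called, in RefSeq windows of 300 bases on GRCh38.p14 from 250 bases before to 50 after the start, which were found for 87 of 125 higher and 79 of 110 lower genes. The AP-1 site TGACTCA or its reverse complement TGAGTCA was present in 7 of the 87 (8.05%) and 7 of the 79 (8.86%), against 3.12% of 10396 promoters of protein-coding genes tested and 4.92% of all promoters in the table. The 3 windows below, of 170 bases before and 25 bases from the start, are shown because MMP7 rose and DIO2 and IL11 fell while each holds this site, which stands in capitals. They lie at chr11:102530723-102530917, chr14:80211480-80211674 and chr19:55370439-55370633, all on the minus strand, and are written 5′ to 3′ in the direction of transcription.
MMP7: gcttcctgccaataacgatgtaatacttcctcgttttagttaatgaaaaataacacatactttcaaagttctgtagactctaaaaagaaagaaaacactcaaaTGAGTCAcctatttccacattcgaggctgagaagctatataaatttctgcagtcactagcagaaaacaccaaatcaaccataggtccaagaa
DIO2: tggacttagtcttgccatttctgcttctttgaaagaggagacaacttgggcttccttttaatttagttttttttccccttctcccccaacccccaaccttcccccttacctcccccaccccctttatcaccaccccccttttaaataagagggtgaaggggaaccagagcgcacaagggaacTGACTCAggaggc
IL11: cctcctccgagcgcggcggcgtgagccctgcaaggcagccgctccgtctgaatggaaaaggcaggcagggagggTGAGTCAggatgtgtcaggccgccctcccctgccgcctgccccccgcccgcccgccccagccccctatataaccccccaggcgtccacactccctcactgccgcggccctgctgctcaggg
The site begins 67 bases before the start in MMP7, 96 before it in IL11 and at base 13 after it in DIO2. Higher and lower genes held it in like shares. The ETS core GGAAG or its complement CTTCC was in 66.7% of higher and 78.5% of lower genes against 76% of tested genes, the TEAD site CATTCC or its complement in 12.6% and 11.4% against 10.8%, and the FOXA site TGTTTAC or its complement in 3.45% and 2.53% against 2.22%. The CArG box of SRF was in 1 higher gene, AQP3, and in 0 lower genes, against 1.05% of tested genes. These are matches of letters in short windows and were not tested. The promoters of TAGLN, MUC5AC and MUC5B were not analysed here.

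Set beside the sort, most knockdown calls had the same direction. Of the 244 genes called, 243 were also tested between BTLAlow and BTLAhigh cells, where 25.4% of genes tested were called. Of these 243, 185 were called there in the same direction (76.1%), 7 in the opposite direction and 51 not at all. The 185 are 4.46% of the 4149 genes called in the sort among those tested in both. The difference between the log2 fold changes was then tested directly with all 12 libraries, and 4.83% of 16160 genes passed. Among the knockdown calls, 54 had a called difference with the larger change in the knockdown, 23 of them higher and 31 lower. Choosing genes by their call in the knockdown favors a larger change there. No matching count was made from the genes called in the sort, so this number does not show which experiment moved genes further. Of the 54, 36 were not called in the sort, 15 changed there in the same direction by less and 3 in the opposite direction. Another 16 knockdown calls had a called difference with the larger change in the sort, and 15 were not called in the sort without a called difference between the experiments, RUNX2 among them (log2 fold change -1.48 in the knockdown and -1.19 in the sort).

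**Figure D5:**
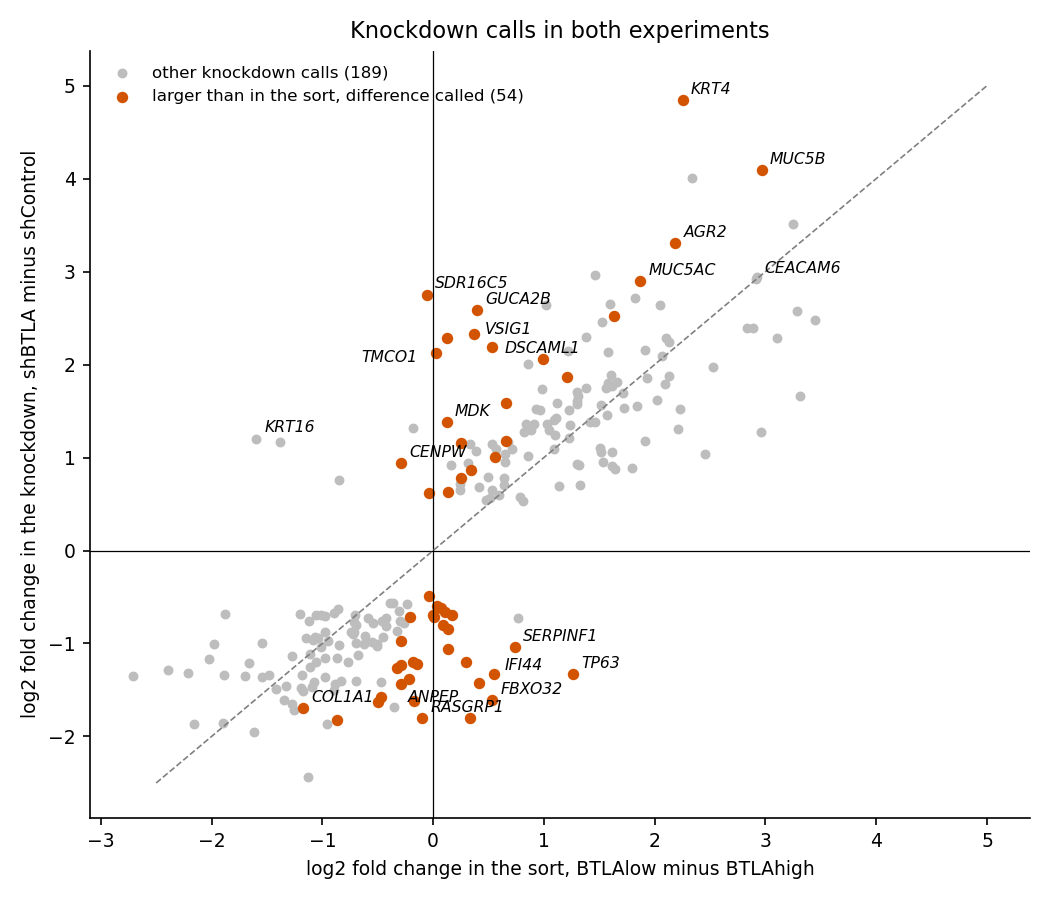
Log2 fold change in the knockdown (vertical axis, shBTLA minus shControl) against that in the sort (horizontal axis, BTLAlow minus BTLAhigh) for the 243 knockdown calls tested in both, with a dashed line where the changes are equal. Orange points are the 54 genes whose change was larger in the knockdown with a called difference, among them TMCO1 at 2.12 against 0.03 and TP63 at -1.33 against 1.26.

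TMCO1 had the smallest p of any difference from the sort among knockdown calls. It encodes a calcium channel of the endoplasmic reticulum membrane, lies on chromosome 1 from 165724293 to 165827755 and had 123, 121 and 129 RPM in shBTLA 1, 2 and 3 and 32.3, 25.3 and 28.6 RPM in shControl 1, 2 and 3 (log2 fold change 2.12, standard error 0.12, adjusted p = 1.77e-04). The sorted cells had 101, 111 and 106 RPM in BTLAlow and 106, 101 and 106 RPM in BTLAhigh, a log2 fold change of 0.03 (difference 2.09, standard error 0.13, adjusted p = 2.05e-05). The shBTLA libraries were thus a little above the sorted cells and the control libraries stood apart from the other 9 at about 4-fold lower, a comparison of levels across tables that were normalized separately. UCK2, which overlaps the start of TMCO1, had 105, 103 and 106 RPM in shBTLA against 131, 117 and 126 RPM in shControl and was not called (adjusted p = 0.379).

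Further genes that rose in the knockdown and were not called in the sort had smaller changes or fewer reads. MDK, a heparin-binding growth factor, had 41, 43.8 and 38.04 RPM in shBTLA against 13.01, 19.9 and 14.8 RPM in shControl (log2 fold change 1.38, standard error 0.17, adjusted p = 0.0123) and 23.5, 18.4 and 21.7 RPM in BTLAlow and 18.5, 23.4 and 16.8 RPM in BTLAhigh in the sort, where the groups overlapped (difference 1.26, standard error 0.24, adjusted p = 0.0139). VSIG1, an adhesion molecule of gastric epithelium, had 3.87, 3.702 and 3.16 RPM in shBTLA against 0.892, 0.745 and 0.361 RPM in shControl (log2 fold change 2.33, standard error 0.32, adjusted p = 0.0152), with a log2 fold change of 0.37 in the sort (difference 1.96, standard error 0.42, adjusted p = 0.0237). DSCAML1, a neuronal adhesion molecule, changed by 2.19 against 0.54 (difference 1.65, standard error 0.35, adjusted p = 0.0233). CENPW, a centromere protein, had 44.1, 50.48 and 41.7 RPM in shBTLA against 18.5, 29.1 and 24.4 RPM in shControl and a sort change of -0.29 (difference 1.23, standard error 0.23, adjusted p = 0.0129). UNC13D, which primes secretory granules for release, had 279, 260.0 and 256 RPM in shBTLA against 173, 165 and 179 RPM in shControl and a sort change of -0.03 (difference 0.65, standard error 0.102, adjusted p = 0.00656). SDR16C5, a retinol dehydrogenase, GUCA2B and AC074194.2 had under 2 RPM in all 12 libraries, and MOB4, ID2 and TM4SF1 completed the genes that rose here without a call in the sort. The called differences of ID2 and TM4SF1 were 0.53 and 0.49 on the log2 scale (adjusted p = 0.0444 and 0.0131).

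The genes that fell in the knockdown with no call in the sort were more numerous. RASGRP1 was at 4.24 to 5.25 RPM in shBTLA against 13.2 to 21.7 RPM in shControl, and in the sort it had 5.24, 7.96 and 5.91 RPM in BTLAlow and 6.89, 5.55 and 7.899 RPM in BTLAhigh, with overlapping groups (difference -1.71, standard error 0.301, adjusted p = 0.0107). ANPEP, a surface aminopeptidase, had 2.26, 2.78 and 2.49 RPM in shBTLA against 7.07, 6.42 and 7.21 RPM in shControl (log2 fold change -1.43, standard error 0.18, adjusted p = 0.0122) and a sort change of 0.41 (difference -1.84, standard error 0.303, adjusted p = 0.00777). ABCA1, the cholesterol exporter, had 7.32, 6.98 and 6.803 RPM in shBTLA against 21.7, 13.1 and 15.3 RPM in shControl (log2 fold change -1.203, standard error 0.199, adjusted p = 0.0297) against 0.29 in the sort (difference -1.496, standard error 0.32, adjusted p = 0.0237). ULK1, the kinase that starts autophagy, had 128, 111 and 115 RPM in shBTLA against 209, 179 and 194 RPM in shControl (log2 fold change -0.72, standard error 0.11, adjusted p = 0.0204) and 0.01 in the sort (difference -0.73, standard error 0.13, adjusted p = 0.00931). CCDC80, a matrix protein, had 159, 142 and 151 RPM in shBTLA against 308, 246 and 260.3 RPM in shControl (log2 fold change -0.84, standard error 0.12, adjusted p = 0.0152) and 0.13 in the sort (difference -0.97, standard error 0.14, adjusted p = 0.00408). FURIN, a protease that activates secreted precursors, RND1, a small GTPase, and SYTL2, a Rab27 effector of secretion, fell with log2 fold changes of -0.66, -0.69 and -1.198 against 0.105, 0.17 and -0.18 in the sort. HHLA2, IFI44, IL4R, LAMA4, FLRT2 and PMEPA1 belong to the same group. Leaving out shBTLA 1, shBTLA 2, shBTLA 3 or shControl 3 left at most 1 lower gene with a called knockdown change and a called difference, and 9, 11, 8 and 8 higher ones, so the lower set rests on all of these libraries.

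Called changes in opposite directions were found for 7 genes, each with a called difference. TP63, a transcription factor of basal epithelial cells, had 7.34, 6.14 and 5.61 RPM in shBTLA against 21.7, 13.2 and 14.3 RPM in shControl (log2 fold change -1.33, standard error 0.22, adjusted p = 0.0292) but 23.4, 28.4 and 28.4 RPM in BTLAlow and 9.21, 10.3 and 14.2 RPM in BTLAhigh, so that it fell with the knockdown and was higher in the cells with less BTLA (difference -2.59, standard error 0.29, adjusted p = 0.00121). FBXO32, a ubiquitin ligase known from muscle wasting, had 1.76, 2.58 and 2.73 RPM in shBTLA against 8.102, 6.97 and 6.802 RPM in shControl (log2 fold change -1.61, standard error 0.22, adjusted p = 0.015) and 5.51, 5.06 and 5.42 RPM in BTLAlow and 3.66, 3.67 and 3.63 RPM in BTLAhigh (difference -2.14, standard error 0.24, adjusted p = 0.00121). SERPINF1 and DCDC1 changed by -1.04 and -0.72 in the knockdown and 0.74 and 0.77 in the sort. The other direction was seen in KRT16, at 1.204 against -1.59 (difference 2.799, standard error 0.27, adjusted p = 4.58e-04), in the calcium-binding protein CALB2, at 1.17 against -1.38, and in the microtubule regulator STMN3, at 0.76 against -0.85.

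The leading secretory genes moved the same way in both experiments but differed in size. MUC5B changed by 4.09 against 2.96 (difference 1.12, standard error 0.15, adjusted p = 0.00257), MUC5AC by 2.898 against 1.87 (difference 1.03, standard error 0.10, adjusted p = 4.36e-04) and AGR2 by 3.31 against 2.19 (difference 1.12, standard error 0.195, adjusted p = 0.00996). SPDEF and KRT4 were likewise further apart in the knockdown, with differences of 0.89 (adjusted p = 0.00815) and 2.59 (adjusted p = 0.00447). CEACAM6 and LGR6 changed almost equally, with differences of 0.00 (standard error 0.18) and 0.01 (standard error 0.33). SLPI, ST6GALNAC1, FCGBP and LCN2 had differences of 1.67, 0.59, 0.02 and -0.44, none of them called. MUC13 changed further in the sort (difference -0.77, standard error 0.187, adjusted p = 0.0382). The fibronectin gene FN1, called higher in the sort at 1.39, had a log2 fold change of -0.34 in the knockdown and was not called there (difference -1.73, standard error 0.31, adjusted p = 0.011).

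The sort called 19.1% of all genes tested higher in BTLAlow cells and 6.25% lower, against 0.782% and 0.686% in the knockdown, so that list counts from the experiments are read against unlike shares. Plasma proteins of the liver type had a median of 0.07 in the knockdown, with 4 higher and 1 lower, and 0.80 in the sort, with 25 higher and 1 lower of 34 tested. Interferon-stimulated genes had 0 higher and 1 lower with a median of -0.04, against 12 higher, 0 lower and 0.44. Amino acid response genes held 0 calls in the knockdown against 21 higher and 2 lower in the sort. Ribosomal protein genes had medians of 0.18 and -0.32, with 0 calls and 17 lower calls. For collagens the counts were 7 lower and 0 higher against 13 lower and 5 higher, with medians of -0.34 and -0.18. Within the immune checkpoint list the called members, VSIR and HHLA2, both differed from the sort with the larger change in the knockdown, and in the TGF-beta family list INHBB, ID2 and PMEPA1 did, 3 of 50 tested members. Over all genes tested in both experiments 0.334% were knockdown calls with such a larger change. Of the 19 secretory genes 4 were such calls. The median of that list was nevertheless 0.76 in the knockdown and 1.46 in the sort, where 12 were higher and 2 lower of 18 tested. Membrane mucins and CEACAMs had medians of 0.87 and 1.64, with 6 of 9 higher and 0 lower in the sort. No test was run on the lists themselves.

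The methods name a threshold of p up to 0.05, unadjusted, with a log2 fold change of 1 or more in size, at which 290 genes were higher and 172 lower in shBTLA by limma. These counts moved with the treatment of low genes, from 471 and 296 with no filter to 170 and 117 with at least 30 reads in 3 libraries, and to 77 and 58 on log2(RPM + 1).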

How the data were processed

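Per the submitters' notes and the methods, Trim Galore 0.6.6 was used for trimming, STAR for alignment to hg38 (GRCh38) and featureCounts for read numbers per gene, and the authors deposited RPKM. Settings for strand and for multi-mapping reads are not given in these sources. The deposited RPKM carry the length of another gene, the one at the same place in the sorted list of gene IDs. With that length (known for 58797 of 60617 genes, searched for 1056, and 764 were 0) 100% of values above 0 came out within 0.02 of a whole read, against 5.77% with each gene's own span. The authors' edgeR tables hold log2 fold changes, log2 CPM, a likelihood ratio score, p-values and FDR, which were not used beyond gene positions. Reads were divided by library totals to give RPM, and log2(RPM + 0.1) was fitted with limma 3.58.1 (lmFit, eBayes with trend, R 4.3.3, tested on simulated data), 3 libraries against 3, for genes with 10 or more reads in 3 or more of 6 libraries. Differences from the sort came from a fit of all 12 libraries. Single low genes were compared by exact permutation tests. Because the values are RPKM, edgeR was not run here, and voom on the recovered reads was an alternative. The 27 gene names stored as dates were restored from the gene IDs. The 52 lists were written from general knowledge, and members and lists were chosen with earlier results of these data known. Named genes were called protein-coding genes with the largest folds or RPM differences, called list members, noncoding RNAs with the smallest p, genes with the largest differences from the sort, genes with at least 20 reads against at most 3 and the closest called neighbours. The genes CALB2, STMN3, DCDC1, FN1, UCK2, CDH1, VIM, DUSP6, KRT18, SNAI2, UNC13D, FURIN, RND1, SYTL2 and RUNX2 were added after their values were seen. A few genes that the rule names are not reported here. Alternatives were another scaling, filters, pseudocounts, the deposited RPKM, voom, a ribosomal covariate, a replicate block and each library left out. Python 3.11.15 was used for the recovery of reads.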

Additional observations from a re-analysis of the deposited data

How the results depend on the processing

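For the 136 called genes that the naming rule gave, the direction was kept in each alternative in which they were tested, and genes added after their values were seen were not followed here. Of the 136, 9 lost the call with median-ratio scaling (CENPW, AKR1C2, AKR1C3, ALDH3A1, PMEPA1, PDLIM7, JUNB, COL6A2 and SYT12, adjusted p = 0.0522 to 0.124), 17 with no filter, 47 on the deposited RPKM, 5 with voom and 0 with the ribosomal covariate or the replicate block. With the ribosomal covariate limma gave adjusted p = 2.29e-28 for MUC5B, against 5.28e-06 in the main fit. A call could hardly be lost among p-values that small, so the 0 for this covariate is no check of the calls. The numbers of calls moved more. With ribosomal protein reads (their share) as covariate 1360 genes were higher and 1273 lower, and with the replicate block 260 and 285. The deposited RPKM gave 70 lower genes, and left-out libraries gave 22 to 291 higher and 3 to 263 lower. At the study's threshold the alternatives gave 471 higher and 296 lower with no filter, 170 higher with at least 30 reads, 77 and 58 on log2(RPM + 1), 126 and 87 on log2(RPM + 0.5) and 169 and 101 on the deposited RPKM, and 201 to 372 higher and 147 to 329 lower without 1 library. Calls with a larger change than in the sort were 38 higher with median-ratio scaling, 14 lower with no filter, 251 and 264 with the ribosomal covariate, and 8 to 47 higher and 0 to 97 lower without 1 library. Fewer samples enter each of the latter fits, in some of which the counts fell and in others rose, and no cause of these moves was tested. Libraries of the same replicate number deviated with correlations of 0.22, 0.41 and -0.04 for numbers 1, 2 and 3. Those of unlike number ranged from -0.40 to 0.26. Whether the numbers pair the samples is not settled by these values, and the replicate block is given for the counts only. Depth limits BTLA, TNFRSF14 and genes under 1 RPM, where 3 reads correspond to 0.0719 to 0.103 RPM.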
